A study of Mus musculus with 6 samples.

Results

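The genes described here encode the 2 protein complexes that start autophagy: Ulk1, Ulk2 and Rb1cc1 of the ULK kinase complex, and Becn1, Pik3c3, Pik3r4, Uvrag and Atg14 of the VPS34 lipid kinase complexes. They were chosen by name, as all non-control probes that the array's annotation assigns to these 8 symbols. That gave 11 of the 55681 non-control probes. All 8 genes were among the 19215 features (named genes and unnamed transcripts) with a probe bright enough to test. RNA came from G1E-ER-GATA-1 cells, a mouse erythroid precursor line without its own GATA-1 that carries GATA-1 fused to the estrogen receptor's hormone-binding domain, so that ß-estradiol turns it on. One group of 3 samples received siRNA against Foxo3 and the other 3 received nontargeting siRNA. Both groups were nucleofected at 0 h and again at 24 h, both were given ß-estradiol at 24 h, and RNA was taken at 48 h, so that every sample had ER-GATA-1 active for 24 h. Each sample was hybridised alone to an Agilent array.

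Autophagy encloses cytoplasm and organelles in a double membrane that fuses with the lysosome. The ULK complex, a serine/threonine kinase held by the scaffold FIP200 (encoded by Rb1cc1) with ATG13 and ATG101, is the first to act and responds to nutrient and energy signals from mTORC1 and AMPK. It activates VPS34, which makes phosphatidylinositol 3-phosphate (PI3P), the lipid that recruits the later autophagy proteins. VPS34 (Pik3c3), its scaffold VPS15 (Pik3r4) and Beclin 1 (Becn1) form a common core. That core joins with ATG14 at the site where autophagosomes form, or with UVRAG on endosomes. Maturing red cells rely on this pathway to remove mitochondria and other organelles, and FOXO3 is a transcription factor known to act on autophagy genes.

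Of the 8 genes, 3 fell with Foxo3 siRNA: Ulk1 to 35.1%, Rb1cc1 to 38.6% (58.7% by its other probe) and Atg14 to 31.4% of the nontargeting level. The other 5, namely the kinase Ulk2, the common core genes Becn1, Pik3c3 and Pik3r4, and Uvrag, differed by −0.11 to 0.12 on the log2 scale and did not pass the test. None of the 8 was higher with Foxo3 siRNA, at an adjusted p under 0.05 or at an unadjusted p under 0.05, in the limma fit or in the authors' deposited table at the adjusted threshold. Fold changes and adjusted p-values are from limma's moderated test, with Benjamini-Hochberg adjustment over all 26991 probes kept after a background filter, and a gene is represented by its brightest kept probe. The 3 lower genes are 37.5% of the 8, against 13.2% of all 19215 features called lower and 13.0% called higher. Ranked by size of the fall among the 2533 features called lower, Atg14 was number 152, Ulk1 number 204 and Rb1cc1 number 279, so that 1.45% of all features were called lower with a fall as large as that of Rb1cc1 or larger. Of the 11 probes 4 were lower, against 13.4% of all kept probes, and 0 were higher, against 12.2%.

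The probes are 60 bases long, and where they lie decides which transcripts they read. Their positions, from the array's annotation, refer to mouse build mm9. The Ulk1 probe lies at chr5:111213514-111213573 on the minus strand. The Atg14 probe lies at chr14:48160711-48160770, minus strand. Rb1cc1 is read by a brighter probe whose ends lie 3136 bases apart on the genome, so that its 60 bases cross at least 1 exon junction (chr1:6255674-6258809, plus strand), and by a dimmer one further along the transcript (chr1:6265434-6265493). The Becn1 probe also crosses a junction, with ends 943 bases apart (chr11:101151771-101152713, minus strand). So does the dimmer Pik3c3 probe, given below, with ends 8602 bases apart. The junction-crossing probes of Rb1cc1, which fell, and of Becn1, which did not pass the test, are printed 5′ to 3′ because a probe of this kind reads spliced RNA.
Rb1cc1: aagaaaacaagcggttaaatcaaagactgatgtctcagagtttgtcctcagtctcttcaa
Becn1: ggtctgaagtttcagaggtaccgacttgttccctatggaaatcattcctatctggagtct

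Ulk1 encodes the main initiating kinase. Its scaled log2 signal, which is log2 of the spot intensity minus the array's 75th percentile, was 4.68, 4.25 and 4.25 on the Foxo3 siRNA arrays 1 to 3. On the nontargeting arrays 1 to 3 it was 5.81, 5.96 and 5.94. All 3 Foxo3 siRNA values lay below all 3 nontargeting values, and Foxo3 siRNA replicate 1 was the highest of its group. The mean was 4.39 ± 0.248 (SD, n = 3) against 5.90 ± 0.0838 (SD, n = 3). Ulk1 fell by 1.51 on the log2 scale (SE 0.152, 95% interval −1.88 to −1.15, limma adjusted p = 0.00211), which is 2.85-fold lower. The authors' deposited table gives −1.46 with an adjusted p of 0.0244 for this probe. Spot intensity before scaling was 7490 to 9660 in the Foxo3 siRNA group and 16800 to 21100 with nontargeting siRNA, so the groups were also apart without any scaling between arrays.

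Rb1cc1 encodes FIP200, the scaffold that holds the ULK kinase together with ATG13 and ATG101. Its brighter probe read 1.01, 1.15 and 0.86 with Foxo3 siRNA, against 2.27, 2.39 and 2.48 with nontargeting siRNA. The groups did not overlap, and the fall of 1.37 (SE 0.125, 95% interval −1.67 to −1.07, adjusted p = 0.00161) is 2.59-fold. The dimmer probe, close to it in mean signal and the higher of the 2 on every Foxo3 siRNA array, moved the same way by less. It read 1.18, 1.47 and 1.12 against 1.87, 2.18 and 2.02, and fell by 0.77 (SE 0.146, 95% interval −1.12 to −0.42, adjusted p = 0.0134), to 58.7% of the nontargeting level. The 95% intervals of the 2 Rb1cc1 probes touch only between −1.12 and −1.07, and the difference between them was not tested, since probes on the same arrays are not replicates. The authors' deposited table gives −1.36 (adjusted p = 0.0242) for the brighter probe and −0.82 (adjusted p = 0.0872) for the dimmer one, so the dimmer probe passed the threshold in the limma fit and not in that table. With array medians the dimmer probe was at −0.46 (adjusted p = 0.242), and with no filter on dim probes it had an adjusted p of 0.132, both short of the threshold. It also missed it without Foxo3 siRNA replicate 3 (−0.70, limma adjusted p = 0.0502) and, at −0.69 with an adjusted p of 0.0643, when nontargeting replicate 2 was left out, while the brighter probe, Ulk1 and Atg14 passed with any 1 array left out.

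Ulk2 encodes the paralogous kinase that can stand in for Ulk1. Its brighter probe (chr11:61591022-61591081, minus strand) read 0.53, 0.35 and 0.35 on the Foxo3 siRNA arrays and 0.40, 0.42 and 0.75 on the nontargeting arrays. The values of the groups overlapped, and the difference was −0.11 (SE 0.138, 95% interval −0.44 to 0.22, adjusted p = 0.536). The interval reaches no further than a fall of 0.44, well short of the change of Ulk1. The dimmer Ulk2 probe (chr11:61589841-61589900) read −1.89, −1.63 and −0.20 against −1.85, −1.71 and −1.41, a difference of 0.42 (SE 0.436, 95% interval −0.63 to 1.46, adjusted p = 0.476). That estimate rests on 1 array: Foxo3 siRNA replicate 3 had a spot intensity of 344 where the other 5 arrays had 83.2 to 164, and without it the difference was −0.10.

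**Figure D1:**
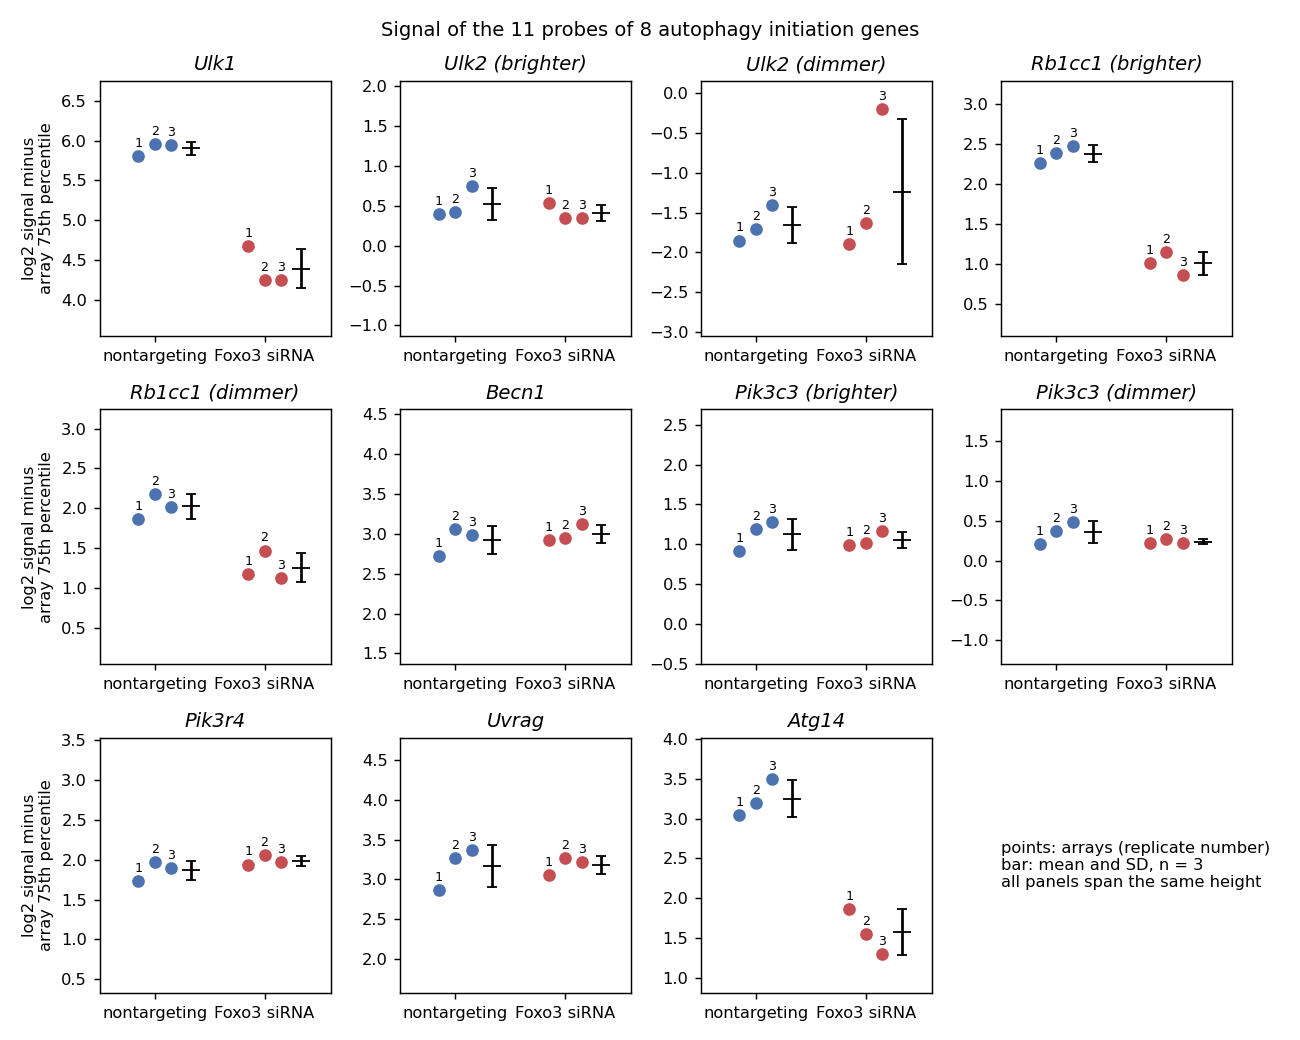
Scaled log2 signal (log2 spot intensity minus the array's 75th percentile, vertical axis) of the 11 probes on each of the 6 arrays, nontargeting siRNA in blue and Foxo3 siRNA in red, with replicate numbers and the mean and SD of each group (n = 3). Every panel spans the same height, and the groups stand apart for Ulk1, both Rb1cc1 probes and Atg14, where all Foxo3 siRNA values lie below all nontargeting values.

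Atg14 encodes the subunit that directs VPS34 to the forming autophagosome, and it showed the largest fall of the 8 genes. With Foxo3 siRNA it read 1.87, 1.55 and 1.30, against 3.05, 3.20 and 3.50 in the nontargeting group. The lowest nontargeting value was above the highest Foxo3 siRNA value. Atg14 fell by 1.67 (SE 0.192, 95% interval −2.13 to −1.21, adjusted p = 0.00306), which is 3.19-fold, from 3.25 ± 0.228 to 1.57 ± 0.288 (SD, n = 3 each). The authors' deposited table gives −1.65 with an adjusted p of 0.0262.

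Uvrag encodes the subunit that takes the place of ATG14 in the endosomal form of the complex. It read 3.05, 3.27 and 3.22 in the Foxo3 siRNA group, against 2.87, 3.27 and 3.37 in the nontargeting group (chr7:106035448-106035507, minus strand). The Foxo3 siRNA values lay inside the range of the nontargeting ones. The difference was 0.01 (SE 0.161, 95% interval −0.38 to 0.40, adjusted p = 0.966).

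The 3 genes of the common core did not pass the test. Becn1, whose product Beclin 1 binds ATG14 or UVRAG, read 2.92, 2.95 and 3.13 against 2.72, 3.06 and 2.99, a difference of 0.08 (SE 0.136, 95% interval −0.25 to 0.40, adjusted p = 0.666). Pik3c3, the lipid kinase itself, was read by 2 probes that share bases (chr18:30484212-30484271 and chr18:30484259-30492860, plus strand), so they are not independent readings. The brighter read 0.99, 1.01 and 1.17 against 0.91, 1.19 and 1.28, a difference of −0.07 (SE 0.136, 95% interval −0.40 to 0.26, adjusted p = 0.711). The dimmer gave −0.12 (95% interval −0.40 to 0.16, adjusted p = 0.448). For both, the values of the 2 groups overlapped.

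Pik3r4, the VPS15 scaffold, was printed on the array in 10 spots of the same probe (chr9:105589596-105589655, plus strand), so its reading error within an array can be seen. The SD between its spots was 0.0444 to 0.0810 on the 6 arrays, after 4 spot readings marked as outliers were left out. The SD between arrays was 0.0655 with Foxo3 siRNA and 0.121 with nontargeting siRNA. Pik3r4 read 1.94, 2.06 and 1.97 against 1.73, 1.97 and 1.90, a difference of 0.12 (SE 0.114, 95% interval −0.15 to 0.40, adjusted p = 0.417). Over the 5 genes that did not pass, the 95% intervals ran from −0.44 to 0.40.

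**Figure D2:**
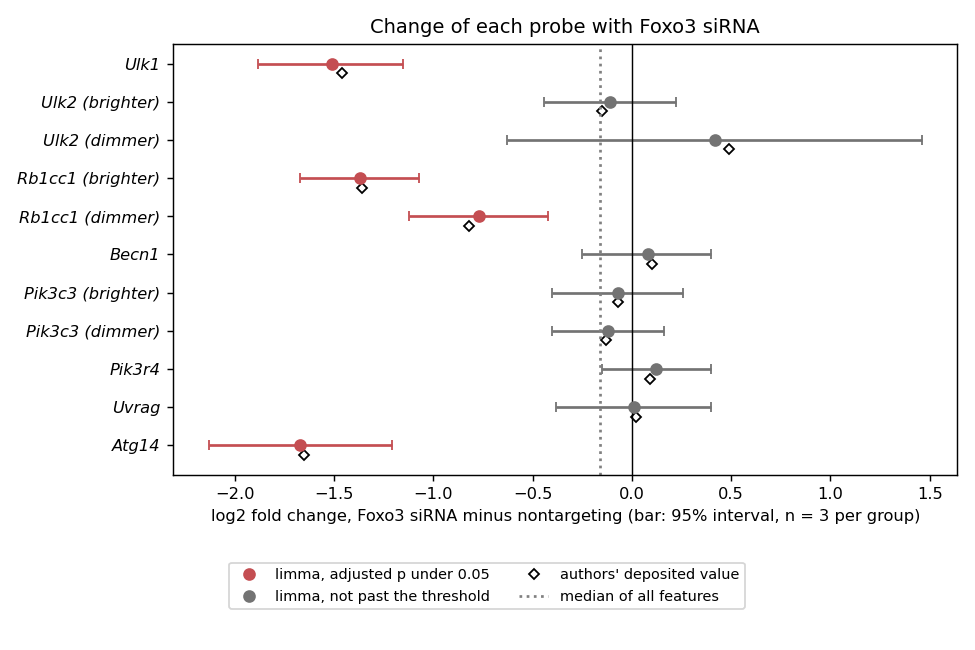
Log2 fold change of each of the 11 probes, Foxo3 siRNA minus nontargeting (horizontal axis), with its 95% interval from limma (n = 3 arrays per group), red where the adjusted p is under 0.05 and grey otherwise. Open diamonds are the values of the authors' deposited table, and the dotted line is the median of all features at −0.16; the intervals of Ulk1, Atg14 and both Rb1cc1 probes lie wholly below that line.

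Because the paralogs and the alternative subunits sit on the same arrays, the change of 1 can be read against the other without any scaling between arrays. These pairs were chosen after their values were seen and are given without a test. The difference Ulk1 minus Ulk2 was 4.15, 3.90 and 3.90 on the Foxo3 siRNA arrays and 5.40, 5.54 and 5.20 on the nontargeting arrays, a shift of −1.40. Atg14 minus Uvrag was −1.18, −1.72 and −1.92 against 0.17, −0.07 and 0.12, a shift of −1.68. In both pairs all Foxo3 siRNA arrays lay below all nontargeting arrays. Only the shift has a meaning here, since the brightness of different probes does not compare the abundance of their RNAs.

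**Figure D3:**
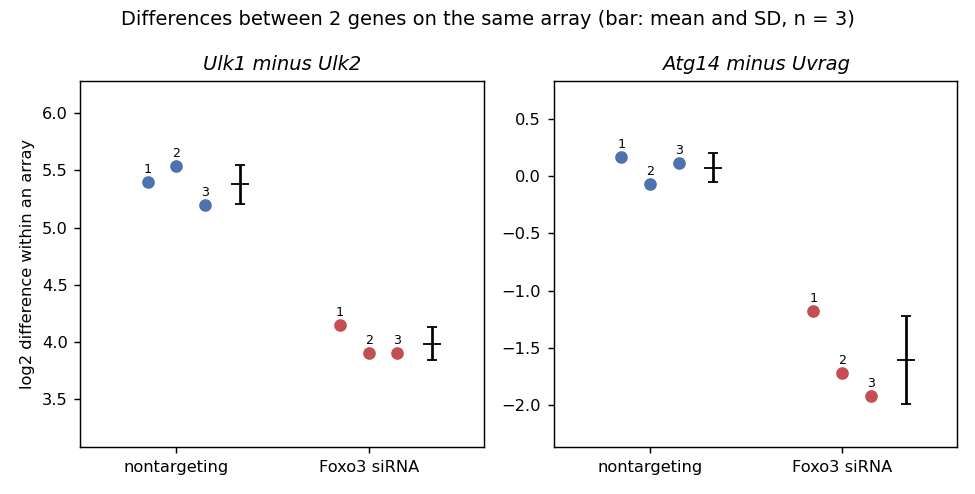
Difference in log2 signal between 2 genes on the same array (vertical axis), Ulk1 minus Ulk2 on the left and Atg14 minus Uvrag on the right, for 3 nontargeting arrays (blue) and 3 Foxo3 siRNA arrays (red), with replicate numbers, mean and SD. The Foxo3 siRNA arrays lie between 3.90 and 4.15 on the left and between −1.92 and −1.18 on the right, below every nontargeting array.

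Scaling sets where 0 lies for all genes. With the 75th percentile the median of all features was −0.16, and with array medians in its place it was 0.15. Taken from the median of all features, Ulk1 was at −1.36, Atg14 at −1.52 and Rb1cc1 at −1.22, while Ulk2 was at 0.04, Pik3c3 at 0.09, Uvrag at 0.16, Becn1 at 0.23 and Pik3r4 at 0.28. With array medians the 5 uncalled genes lay between 0.20 and 0.44, none past the threshold, and the 3 called genes stayed lower at −1.20 for Ulk1, −1.36 for Atg14 and −1.06 for Rb1cc1. The groups' values stood apart downwards in the same 3 of the 8 genes and upwards in 0. Among all features 28.2% stood apart downwards and 22.7% upwards.

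The arrays lay on 1 slide in 2 rows, and the rows are unevenly shared between the groups. Row 1 held all 3 nontargeting arrays and Foxo3 siRNA replicate 1, and row 2 held Foxo3 siRNA replicates 2 and 3. Since row 2 held no nontargeting array, a fit with the row as a block takes its difference from Foxo3 siRNA replicate 1 alone. That array also had the highest Foxo3 signal of its group. With the row as a block, Ulk1 fell by 1.23 (adjusted p = 0.0190), Atg14 by 1.37 (adjusted p = 0.0337) and Rb1cc1 by 1.37 (adjusted p = 0.0233). Within row 1, a single Foxo3 siRNA array is compared, and its spread is assumed to be that of the nontargeting arrays. The limma fit there gave the same sizes because it rests on the same comparison, so it is not a separate reading. Ulk1 then had an adjusted p of 0.0534 and Atg14 of 0.0722, past the threshold no longer, and Rb1cc1 had 0.0484. Of the 4 probes called in all, the dimmer Rb1cc1 probe gave −0.85 in both fits and passed in neither, with adjusted p-values of 0.0796 and 0.110.

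**Figure D4:**
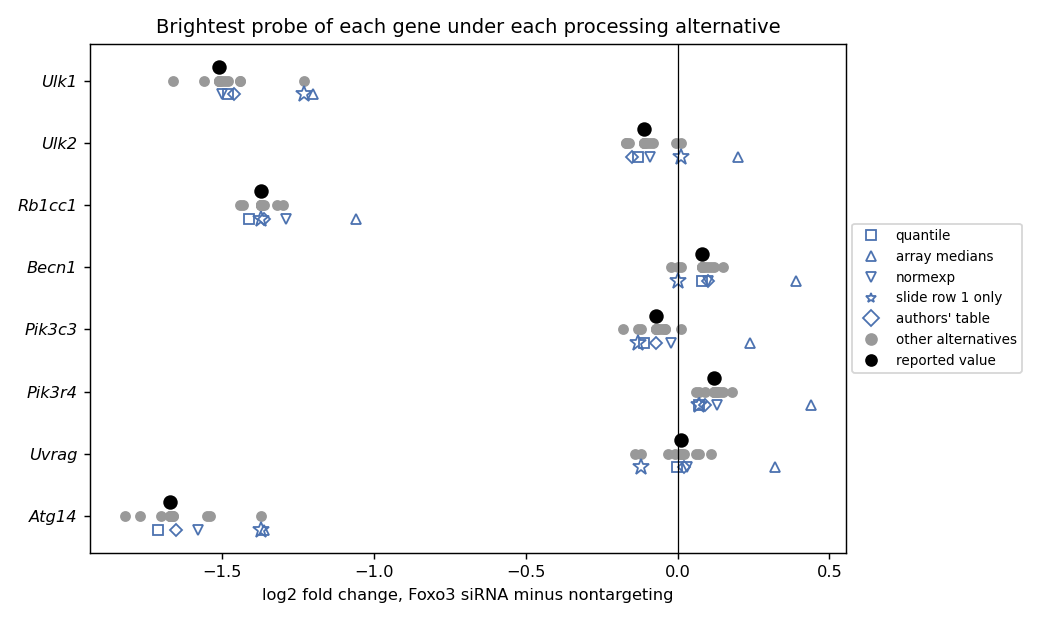
Log2 fold change of the brightest probe of each of the 8 genes (horizontal axis, Foxo3 siRNA minus nontargeting): the reported value in black, 5 processing alternatives as blue symbols and the remaining alternatives as grey points. Ulk1, Rb1cc1 and Atg14 lay between −1.82 and −1.06 under all 17 alternatives, and the other 5 genes lay between −0.18 and 0.44, with array medians giving the highest value in each.

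The siRNA target, the cells and the arrays were checked on the same data. The Foxo3 probe designed on the RefSeq mRNA fell by 2.42 (SE 0.340, adjusted p = 0.00533), to 18.6% of the nontargeting level. In the Foxo3 siRNA group it exceeded background on 2 of 3 arrays. It read −0.46, −1.29 and −1.89 on Foxo3 siRNA arrays 1 to 3, against 1.23, 1.28 and 1.12 on the nontargeting arrays. With the row as a block, which rests on Foxo3 siRNA replicate 1, it gave −1.67. A second Foxo3 probe, designed on a cDNA clone, was the brighter one and exceeded background on all 6 arrays. It read 1.25, 0.75 and 0.77 with Foxo3 siRNA, against 0.67, 0.64 and 0.70 with nontargeting siRNA. The groups stood apart upwards, at a difference of 0.25 (limma adjusted p = 0.258). By the rule of the brightest probe Foxo3 would not be called lower, so the check of the target rests on the dimmer probe. All 11 probes of the 8 genes were well above background on all 6 arrays, and 0 of their spots were saturated. Foxo3 siRNA replicate 3 had 20343 spots well above background, against 30619 to 37532 on the other arrays. Of 8 erythroid markers, 7 were tested and well above background on all 6 arrays, and 1 of them, the transferrin receptor Tfrc, was higher with Foxo3 siRNA by its brightest probe (0.60, adjusted p = 0.0124), while its other 2 kept probes gave 0.35 (adjusted p = 0.183) and 0.34 (adjusted p = 0.189). Their summed scaled signal (the scaled values taken back from log2 and added) was 2580 to 3360 in the Foxo3 siRNA group, below the 3650 to 4030 of the nontargeting group, and the part of this in the results was not tested. Of 6 megakaryocyte markers, 5 were tested and 3 were higher: Treml1 by 2.50 (adjusted p = 0.00268), Itga2b by 1.26 (adjusted p = 0.00183) and Gp1ba by 0.59 (adjusted p = 0.0229). The other 2 did not pass, with Gp9 at −0.55 (adjusted p = 0.252) and Pf4 at −0.16 (adjusted p = 0.755). Among all features 13.0% were called higher. The summed scaled signal of the 5 tested markers overlapped between the groups, at 39.1 to 70.5 with Foxo3 siRNA and 38.1 to 58.8 with nontargeting siRNA. The part of these megakaryocyte markers in the fall of Ulk1, Rb1cc1 and Atg14 was not tested. Of 4 mast cell markers 0 were bright enough to test. Of the macrophage, granulocyte, B and T cell, and fibroblast markers, 3 of 5, 1 of 4, 2 of 4 and 1 of 4 were tested, and 0 were called by their brightest probe. The summed scaled signals of the macrophage markers (4.69 to 6.34 in the Foxo3 siRNA group, 7.25 to 13.6 in the nontargeting group), of the B and T cell markers (3.46 to 4.35 and 4.56 to 6.24) and of the fibroblast marker (0.196 to 0.202 and 0.212 to 0.314) were lower with Foxo3 siRNA on every array, while those of the granulocyte marker overlapped (12.2 to 14.5 and 14.2 to 25.3). Among all features 28.2% stood apart downwards. The macrophage sum was mostly Csf1r and the B and T cell sum mostly Cd3e. The fibroblast marker Col1a2 was above background on 2 of 3 Foxo3 siRNA arrays. The macrophage marker Csf1r was at −0.92 (adjusted p = 0.0665) with the groups apart. Its other 2 kept probes gave −0.47 (adjusted p = 0.404) and −0.20 (adjusted p = 0.327). A dimmer probe of the B cell marker Cd79a was lower by 1.03 (log2 change −1.03, adjusted p = 0.0359) where the brighter was at −0.09. The part of these markers in the results was not tested. In RNA from a whole culture, fewer cells of a type and less RNA per cell cannot be told apart.

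The remaining genes of initiation were followed in 5 lists of 74 genes, of which 67 were tested: 21 were lower and 8 higher with Foxo3 siRNA. These lists were drawn up with earlier results of these data known, so their counts describe the pathway and test nothing. Among all features 13.2% were called lower and 13.0% higher. With array medians 6 list genes were lower and 10 higher, against 4.26% and 15.5% of all features in that fit. With the slide row as a block 6 were lower and 2 higher, against 2.74% and 4.53%. Within row 1, limma called 0 of them, against 0.880% and 1.26%, and 25 had an unadjusted p under 0.05.

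Among 7 ULK complex partners and close kinases, 2 were lower, 0 were higher and the median was −0.42. Atg101, the subunit that stabilises ATG13, read 3.52, 3.53 and 3.51 against 3.90, 4.02 and 4.07 and fell by 0.48 (SE 0.103, adjusted p = 0.0208). Smcr8, which acts in a complex with C9orf72 and binds the ULK complex, fell by 0.46 by its brightest probe (SE 0.119, adjusted p = 0.0345). Its other kept probes gave −0.74 (adjusted p = 0.00674) and −0.41 (adjusted p = 0.259), and the alternatives given below were read for the brightest only. C9orf72 itself was at 0.47 (SE 0.142, adjusted p = 0.0541), and Atg13, named after its value was seen because it completes the ULK complex, was at −0.42 (SE 0.135, adjusted p = 0.0644). Of the 4 proteins of the ULK1 kinase complex, the genes of 3 (Ulk1, Rb1cc1 and Atg101) were called lower in the reported fit, against 13.2% of all features. This group was put together after values were seen and counts Ulk1 and Rb1cc1 again, so it tests nothing. The call of Atg101 was lost in 9 of 17 alternatives. With array medians the list had 0 lower and 1 higher, and Atg101, at −0.17, and Smcr8, at −0.15, were no longer past the threshold. With the row as a block (adjusted p = 0.123 and 0.0868) and in the authors' deposited table (adjusted p = 0.194 and 0.229) neither passed. Leaving out 1 array also ended the limma call of Atg101 for Foxo3 siRNA replicates 2 and 3 (adjusted p = 0.0643 and 0.0693) and nontargeting replicates 2 and 3 (0.0876 and 0.0651), and that of Smcr8 for any of the 6 (0.0562 to 0.122).

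The list of VPS34 regulators also holds genes tied to the complex less directly, such as Stx17, Snap29, Pik3c2a, Pik3c2b, Vmp1 and Tmem41b. Of its 14 tested genes, 5 were lower (Nrbf2, Sh3glb1, Snap29, Bcl2l1 and Pik3c2b), 1 was higher and the median was −0.29. Sh3glb1, whose product BIF-1 binds UVRAG and Beclin 1, read 3.02, 2.94 and 2.62 against 3.68, 3.82 and 4.13 and fell by 1.02 (SE 0.173, adjusted p = 0.00960). Rubcn, encoding Rubicon, an inhibitor of the UVRAG form of the complex, was the gene of this list called higher in the reported fit: 3.02, 3.36 and 3.28 against 2.21, 2.28 and 2.57, higher by 0.87 (SE 0.152, adjusted p = 0.0106). In neither gene did the groups overlap. Bcl2l1, encoding BCL-XL, an anti-apoptotic protein that also binds Beclin 1, fell by 0.62 (SE 0.110, adjusted p = 0.0112). With array medians the list had 0 lower and 1 higher, with a median of 0.02, and Sh3glb1 (−0.71, adjusted p = 0.0631) and Bcl2l1 (−0.30, adjusted p = 0.469) missed the threshold. With the row as a block it had 0 lower and 0 higher by limma, at −0.85 for Sh3glb1 (adjusted p = 0.104), 0.67 for Rubcn (adjusted p = 0.109) and −0.54 for Bcl2l1 (adjusted p = 0.101). None of the 3 passed in the authors' deposited table, with adjusted p-values of 0.0802, 0.0804 and 0.153, and Rubcn (0.0568) and Bcl2l1 (0.0560) also missed in the limma fit without nontargeting replicate 2.

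The list of genes downstream of PI3P also holds some that do not act below it, such as Atg9a and the lipid phosphatases Mtmr3, Mtmr14 and Inpp5e. Of its 14 genes, 6 were lower, Atg9a and Mtmr3 among them, 0 were higher and the median was −0.37. Atg2a, a lipid transfer protein that feeds the growing membrane, read 4.32, 4.14 and 4.44 against 5.41, 5.54 and 5.56 and fell by 1.20 (SE 0.124, adjusted p = 0.00226). Wdr45, a PI3P-binding partner of ATG2, fell by 1.03 (SE 0.136, adjusted p = 0.00451), and its second probe gave −1.03 as well. Atg9a, the membrane protein that works with ATG2, fell by 1.14 (SE 0.172, adjusted p = 0.00684). With array medians 2 of the 14 were past the threshold and the list's median was −0.06, with Wdr45 missing it (−0.72, adjusted p = 0.0586). Atg9a missed it with the row as a block (−0.86, adjusted p = 0.0669), and in the authors' deposited table neither Wdr45 (adjusted p = 0.0541) nor Atg9a (adjusted p = 0.0588) passed.

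Upstream, the mTORC1 list of 20 tested genes had 3 lower and 5 higher with a median of 0.01. One of the 3, Depdc5, named here because its probes disagree, was at −0.68 by its brightest probe, while another of its probes was called higher (0.52, adjusted p = 0.0333). Tsc1, whose product restrains mTORC1 through RHEB, fell by 1.09 (SE 0.129, adjusted p = 0.00337). The genes of its partners, named after their values were seen, were read in the reported fit only. Tbc1d7 went the other way, higher by 1.66 (SE 0.230, limma adjusted p = 0.00520), and Tsc2, at −0.88, did not pass (limma adjusted p = 0.109). Mlst8, a subunit of the mTOR complexes, rose by 0.97 (SE 0.127, adjusted p = 0.00436). Akt1s1, encoding PRAS40, an inhibitor within mTORC1, fell by 0.79 (SE 0.108, adjusted p = 0.00493). With array medians 1 was lower and 6 were higher, and Akt1s1, at −0.48 (adjusted p = 0.210), was not among them. In the authors' deposited table Akt1s1 had an adjusted p of 0.130.

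The AMPK list of 12 tested genes had 5 lower and 2 higher with a median of −0.09. Sesn1 and Sesn2 encode sestrins, stress proteins that hold back mTORC1. Sesn1 fell by 1.06 (SE 0.111, adjusted p = 0.00236) and Sesn2 fell by 1.20 (SE 0.130, adjusted p = 0.00260). Camkk2, a kinase that activates AMPK, fell by 0.66 (SE 0.111, adjusted p = 0.00907). With array medians 3 were lower and 2 higher, and Camkk2, at −0.35 (adjusted p = 0.382), was not among them. Camkk2 also missed the threshold with the row as a block (adjusted p = 0.0871) and in the authors' deposited table (adjusted p = 0.110).

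**Figure D5:**
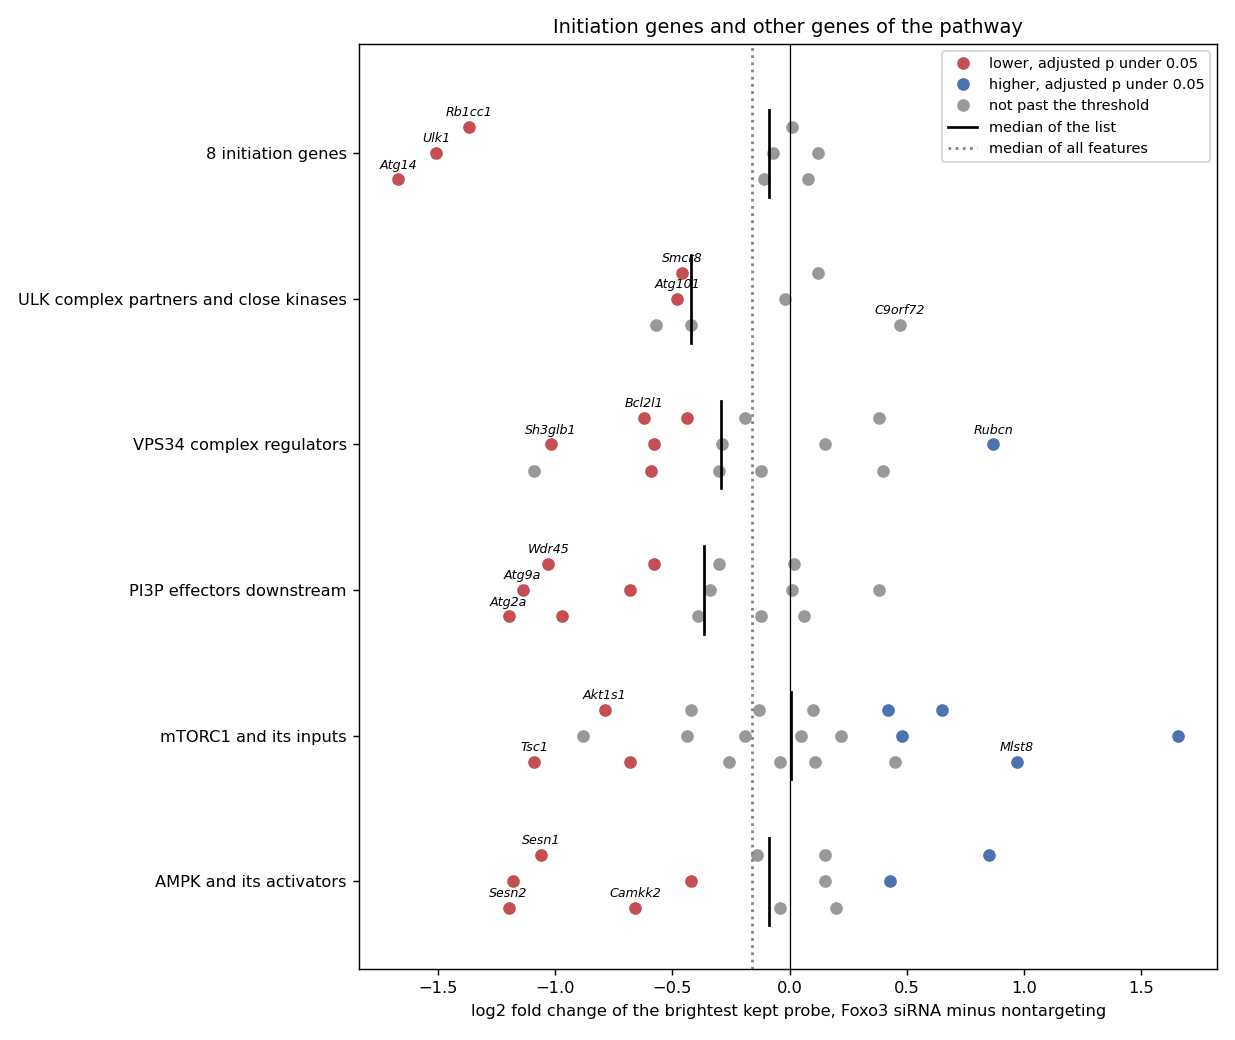
Log2 fold change of the brightest kept probe of each gene (horizontal axis, Foxo3 siRNA minus nontargeting; n = 3 arrays per group) for the 8 initiation genes and the 5 lists, red where lower and blue where higher at an adjusted p under 0.05. Black bars are list medians and the dotted line is the median of all features at −0.16; Atg14, Ulk1 and Rb1cc1 lie further to the left than any gene of the 5 lists, the lowest of which are at −1.20.

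The genes whose signal followed Ulk1 most closely over the 6 arrays were Klc4 (Pearson correlation 0.9999), Tmem140 (0.9991), Foxp1 (0.9990) and Fbxo6 (0.9989), among 12627 named genes. With 6 arrays in 2 groups, this measure mostly ranks how cleanly a gene separates the groups, and 137 genes exceeded 0.99. All 4 were lower with Foxo3 siRNA, Klc4 by 0.96 (adjusted p = 0.00390), Tmem140 by 3.02 (adjusted p = 0.00158), Foxp1 by 1.82 (adjusted p = 0.00245) and Fbxo6 by 0.63 (adjusted p = 0.00957). That direction follows from how they were picked. With array medians Klc4 was at −0.65 (adjusted p = 0.0840) and Fbxo6 at −0.32 (adjusted p = 0.441), neither past the threshold, and Fbxo6 also missed it with the row as a block (adjusted p = 0.0904), without nontargeting replicate 2 (adjusted p = 0.0534) and in the authors' deposited table (adjusted p = 0.134). Tmem140 passed in each of those fits and within row 1.

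RefSeq promoter windows (build GRCm38.p6, 250 bases before to 50 after the annotated start) were at hand for 5 of the 8 genes: Ulk1, Ulk2, Pik3r4, Uvrag and Atg14. The letters TGTTTAC, a core FoxO site, occurred on either strand in 0 of the 5, against 3.65% of 32851 windows. The motif of GATA factors, with the letters AGATAA, occurred in 0 of the 5, against 11.2%. The E-box CACGTG occurred in 1 of the 5, Atg14, against 7.15%. A match is a description of the sequence, and no match says only that these letters are not in this window. The 250 bases before the start and the first 10 bases after it are printed for the 2 called genes with an entry, both on the minus strand, with the E-box in capitals. Ulk1 lies at chr5:110810072-110810331 and Atg14 at chr14:47568425-47568684.
Ulk1: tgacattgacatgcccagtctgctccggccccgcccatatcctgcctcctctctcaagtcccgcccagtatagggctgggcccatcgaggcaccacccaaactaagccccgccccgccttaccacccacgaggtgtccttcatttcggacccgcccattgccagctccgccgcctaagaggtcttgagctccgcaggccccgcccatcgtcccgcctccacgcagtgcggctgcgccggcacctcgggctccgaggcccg
Atg14: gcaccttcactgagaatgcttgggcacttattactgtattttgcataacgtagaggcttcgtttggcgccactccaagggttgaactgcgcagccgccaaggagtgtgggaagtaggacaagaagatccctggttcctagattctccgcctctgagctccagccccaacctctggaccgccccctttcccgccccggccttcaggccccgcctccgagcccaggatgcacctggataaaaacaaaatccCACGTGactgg
The E-box of Atg14 spans the annotated start itself. G and C made up 68.1% of the Ulk1 window and 57.3% of the Atg14 window, against a median of 52.3% over all windows of this length.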

How the data were processed

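Per the file headers, the deposited spot intensity (1-colour Cy3) is the output of Agilent Feature Extraction 10.7.3.1. That software subtracted background, detrended each array and put a surrogate value in place of signals not above background. The deposited series table holds the authors' own test of each spot: a log2 fold change with its p-value, raw and adjusted, from limma per the submitters' processing notes. Its normalization is not given in the sources used here, and base 2 was inferred by setting it against the signals. The deposited flags (unit other) marked control, outlier and background spots.

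Control spots (3671) and outlier-flagged spots were left out. Log2 intensity was scaled by subtracting each array's 75th percentile, and spots of a probe were averaged. Probes were kept when at least 0.5 of their spots passed Feature Extraction's background flag on every array of 1 group or the other, which left 26991 probes, and limma 3.58.1 (R 4.3.3; lmFit, eBayes, two-sided, no covariate) compared the groups. A summed scaled signal is the sum of 2 to the power of the scaled log2 values of a list's tested genes. The script was tested on simulated data. Symbols were matched to RefSeq.

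The genes, lists, tests and alternatives were chosen with earlier results of these data known. Named genes were the 8 with all their probes, Foxo3, up to 3 genes per list with the smallest adjusted p, the 4 most like Ulk1 and cell type markers. Other list genes were named to show a list's make-up, to complete a complex or where probes disagreed. Whether the replicates were separate cultures is not stated in the labels. The p-values thus reflect the spread among these samples, which may be technical, and the number of arrays limits precision.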

Additional observations from a re-analysis of the deposited data

How the results depend on the processing

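Of 17 alternatives, 16 changed 1 choice each: scaling, background correction, filter, outlier spots, gene-level fit, slide row, replicate block or an array left out. The other, the authors' deposited table, differs in several at once. The count of initiation genes called lower stayed at 3 except within slide row 1, where it was 1, and none was called higher under any of them. In 184 comparisons of member probes, 159 kept direction and side of the threshold, 9 lost the call (7 of them for the dimmer Rb1cc1 probe, and 1 each for Ulk1 and Atg14) and 16 changed sign. The cause of these changes was not tested. Sign changes all concerned uncalled probes. The row block and row 1 fits share the same estimates, so their equal values below are not separate readings. Ulk2's brighter probe gave 0.20 with array medians and 0.01 with the row block and within row 1, and its dimmer probe, reported at 0.42, gave −0.23 in both row fits and −0.10 without Foxo3 siRNA replicate 3. Pik3c3 gave 0.24 and 0.19 (its 2 probes) with array medians, and 0.01 for the brighter without nontargeting replicate 3. With an array left out, the ranges were −0.10 to 0.74 for Ulk2's dimmer probe, −0.18 to 0.01 for Pik3c3's brighter probe, −0.02 to 0.15 for Becn1 and −0.14 to 0.11 for Uvrag. Becn1 gave −0.02 without nontargeting replicate 1. Uvrag gave −0.0013 with quantile normalization, −0.12 in both row fits, and −0.03, −0.01 and −0.14 without Foxo3 siRNA replicate 2, Foxo3 siRNA replicate 3 and nontargeting replicate 1.

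Counts over all probes moved more. Against 6900 called, 635 were called with no filter, 1892 with the row block, 753 within row 1, 1349 in the authors' deposited table, and 2706 (without nontargeting replicate 2) to 6023 (without Foxo3 siRNA replicate 1) with an array left out. Without Foxo3 siRNA replicate 2 or 3 the counts were 3875 and 3796, and without nontargeting replicate 1 or 3 they were 3706 and 4230. Of the 11 member probes, 4 were called, 1 within row 1, and 3 with array medians, no filter, the gene-level fit, the row block, without Foxo3 siRNA replicate 3, without nontargeting replicate 2 and in the authors' table. Of the pathway lists, 29 genes were called, 16 with array medians, 1 with no filter, 8 with the row block, 0 within row 1 by limma (25 at an unadjusted p under 0.05), 6 in the authors' table and 13 to 20 with an array left out. The share of calls that were higher was 47.6%, and 77.2% with array medians, 65.4% with no filter, 59.2% with the row block and 65.2% within row 1. The RefSeq probe of Foxo3 stayed at −2.42 with no filter but lost its call (adjusted p = 0.0616). It had no value with the filter on all 6 arrays or in the gene-level fit, which do not hold this probe.

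Deviations of same-numbered arrays correlated at 0.164, −0.31 and 0.114, and those of differently numbered arrays at −0.37 to 0.293. With 3 arrays per group these values cannot settle whether replicate numbers pair the samples. With the replicate block 6964 probes were called, and the same 4 member probes passed. The surrogate share was 50.2% on Foxo3 siRNA replicate 3, against 16.7% to 29.3% elsewhere, which limits dim probes there.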
